A study of Homo sapiens with 4 samples.

Results

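The pore-forming subunits of the voltage-gated calcium channels are encoded by 10 genes in human, CACNA1A to CACNA1I and CACNA1S, and these 10 of 20033 protein-coding genes of GENCODE 44 are described here. They were taken as a gene family, because cadmium ions block or pass through these channels, and not for any value measured in these cells. Earlier results of these data were known when they were chosen. MTF-1 was profiled by CUT&RUN, in which an antibody guides a nuclease to a DNA-binding protein and the released fragments are sequenced, in the MDA-MB-231 breast cancer cell line. There were 2 biological replicate libraries of untreated control cells, kept by serial passage in normal medium, and 2 libraries of cadmium-resistant cells of the same line, selected by passage in rising cadmium sulfate and then held at 10 µM cadmium. Reads of both replicates were pooled by the authors before peak calling, so the data are 1 peak list for control cells (69299 peaks, 130 Mb) and 1 for cadmium-treated cells (60130 peaks, 90.9 Mb). The lists hold positions only, without heights or read counts. Library depth is unknown, no spread between replicates could be measured, and every difference below is a difference between 2 lists, given without a test. Whether the resistant cells descend from 1 clone is not given in the sources used here.

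Voltage-gated calcium channels open when the membrane depolarizes and let calcium into the cell, where it triggers contraction, secretion and gene expression. A ring of acidic residues in the pore selects calcium, and cadmium binds there, which makes it a classic blocker of the high-voltage-activated channels. The L-type genes are CACNA1S, CACNA1C, CACNA1D and CACNA1F, the P/Q-, N- and R-type genes of nerve terminals are CACNA1A, CACNA1B and CACNA1E, and the low-voltage-activated T-type genes are CACNA1G, CACNA1H and CACNA1I. MTF-1 is the zinc finger factor that turns on metallothionein genes through metal response elements (MREs) when zinc or cadmium is in excess. The authors cite a report that MTF-1 activated by cadmium did not use the standard MRE motif.

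For each gene all peaks sharing at least 1 base with the gene or the 20 kb on either side of it, its window, were collected. A control peak that shared no base with a cadmium peak was called lost, a cadmium peak that shared none with a control peak was called gained, and overlapping peaks of both lists were merged into conserved sites. The 10 windows held 51 control and 73 cadmium peaks, which form 9 lost, 31 gained and 41 conserved sites. All 10 windows held a gained peak, and 5 of the 10 held a lost peak. Among all protein-coding genes, 31.1% of windows held a gained and 46.0% a lost peak. Both shares grow with gene length, to 48.7% and 73.9% for genes of 200 to 500 kb, where 4 members lie, and 61.6% and 78.3% for those of at least 500 kb, where CACNA1C lies. More gained than lost peaks were found at 9 of the 10 members, with CACNA1E as the exception, against 19.0% of all windows and 16.8 to 22.3% in the length classes. Peaks under 1000 bp were then dropped from both lists and the rest classed again. In that setting 7 of the 10 windows held a gained peak and 5 had more gained than lost peaks. A peak called gained or lost there can overlap a narrower peak of the other list. Shares over all protein-coding genes were not counted at that width, and those above rest on peaks of any width. The window of CACNA1B held the most gained peaks, 8, followed by CACNA1H with 6 and CACNA1D with 5, while CACNA1A and CACNA1G held the most conserved sites, 10 and 9 of the 41.

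**Figure D1:**
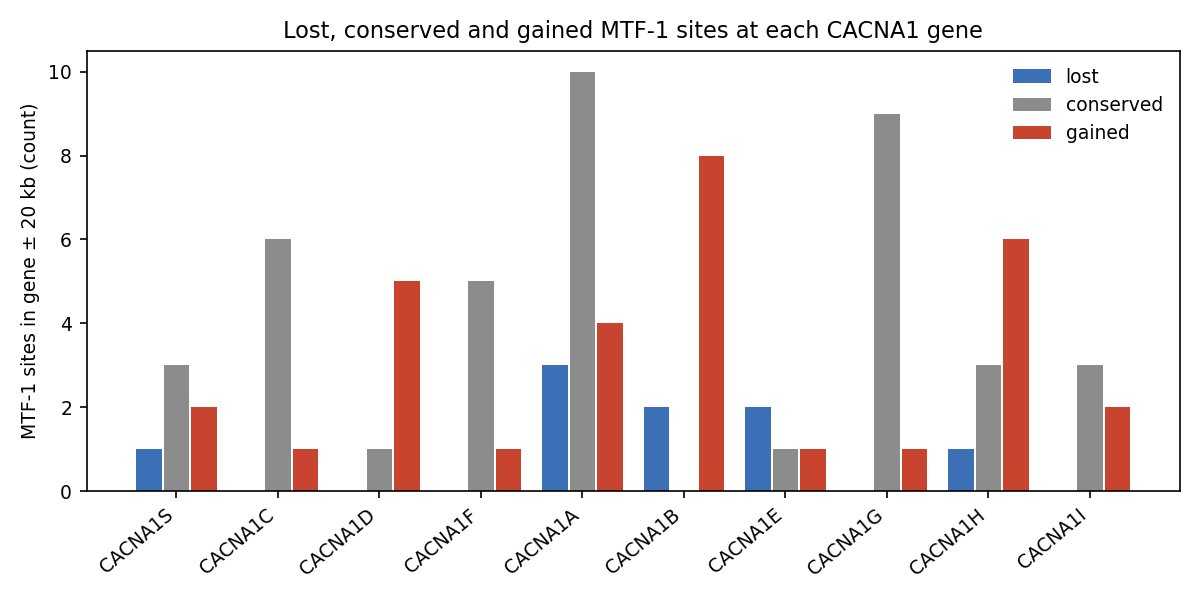
Number of lost, conserved and gained MTF-1 sites (count, vertical axis) in each CACNA1 gene with 20 kb on either side, ordered by channel type. Gained sites outnumber lost sites at every gene but CACNA1E, and CACNA1B has 8 gained, 2 lost and no conserved site.

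Several gained peaks carried short strings that can be read directly in the reference sequence. The stretches below are hg38, plus strand, 5′ to 3′. Strings were searched in the 500 bp around each peak center. The first 5 are all the gained peaks of the family in which an AP-1 string, TGACTCA or its reverse complement TGAGTCA, lay within 100 bp of another AP-1 string or of an MRE core, TGCGCNC or TGCACNC on either strand. The sixth is the gained peak beside the start of CACNA1B. Capitals mark the strings.
CACNA1H, gained, chr16:1191069-1191168: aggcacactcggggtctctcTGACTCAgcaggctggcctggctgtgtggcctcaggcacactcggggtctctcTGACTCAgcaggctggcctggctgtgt
CACNA1S, gained, chr1:201025721-201025846: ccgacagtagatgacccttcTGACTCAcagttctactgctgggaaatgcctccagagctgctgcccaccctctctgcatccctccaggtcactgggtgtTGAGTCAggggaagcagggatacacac
CACNA1C, gained, chr12:2339337-2339408: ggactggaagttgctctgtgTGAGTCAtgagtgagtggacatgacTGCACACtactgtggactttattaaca
CACNA1D, gained, chr3:53570876-53570948: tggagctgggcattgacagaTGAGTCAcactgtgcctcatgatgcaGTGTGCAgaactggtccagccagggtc
CACNA1A, gained, chr19:13637732-13637843: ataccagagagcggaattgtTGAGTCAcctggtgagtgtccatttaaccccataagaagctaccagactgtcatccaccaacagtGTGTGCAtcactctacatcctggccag
CACNA1B, gained, chr9:137880322-137880368: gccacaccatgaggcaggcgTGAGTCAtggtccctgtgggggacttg

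In the gained peaks of CACNA1C and CACNA1D an AP-1 string was followed by an MRE core, whose first bases lay 25 and 26 bp downstream. In CACNA1A the same pair was 65 bp apart. Such pairs were not limited to gained peaks. An AP-1 string within 100 bp of another or of an MRE core was found in 5 of 31 gained (16.1%), 6 of 41 conserved (14.6%) and none of 9 lost sites, and in 5.83%, 4.63% and 3.52% of all gained, conserved and lost sites. The conserved sites with a pair belonged to CACNA1C (3 sites), CACNA1A (2 sites) and CACNA1I (1 site). The AP-1 strings of the CACNA1H peak were 53 bp apart because they belong to a tandem repeat. Bases 53 bp apart were identical over an unbroken run of 102 positions, so that this repeat tract spans 155 bp, chr16:1191041-1191195.

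The start of the canonical transcript, the 1 representative transcript chosen by Ensembl for each gene, had a peak within 1 kb at only 1 of the 10 genes, CACNA1G, in both lists. Of all protein-coding genes, 68.6% had such a peak in control and 66.9% in cadmium-treated cells. CACNA1G (ENSG00000006283.18, chr17:50560715-50627474, plus strand) encodes a T-type channel. Its start lay in a control peak of 4799 bp (chr17:50557001-50561799). A cadmium peak of 2799 bp within that peak came within 1 kb of the start. This conserved site also lay within 1 kb of a start of the antisense RNA gene CACNA1G-AS1. Counting every annotated transcript start, 3 of 10 members had a start peak in control (73.2% of all genes) and 5 of 10 in cadmium-treated cells (71.5%). CACNA1A and CACNA1C were added in both lists, and CACNA1D and CACNA1H in cadmium only. The sites at these starts were chr12:2639801-2641999 in intron 30 of CACNA1C, chr3:53806401-53806999 in intron 45 of CACNA1D and chr16:1194001-1196199 in intron 3 of CACNA1H. In CACNA1A they were 4 conserved sites, chr19:13211401-13213599, chr19:13214801-13216399, chr19:13260801-13262999 and chr19:13276401-13279199, and the gained peak chr19:13234401-13234799. All the added starts lie inside the genes and belong to transcripts annotated as retained introns or without a defined coding sequence. With starts of protein-coding transcripts only, a choice made after seeing the data, CACNA1G was again the single member in both lists. The share over all genes was not counted for such starts.

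The promoters of CACNA1C and CACNA1D were rich in GC and held more than 1 MRE core, and no peak of either list came within 1 kb of their canonical starts. RefSeq promoter sequences (GRCh38.p14, 250 bases before to 50 bases after the start) were found for 8 of the 10 members, all but CACNA1G and CACNA1H. Their GC content ranged from 46.0% for CACNA1F to 85.3% for CACNA1B, against a median of 58.7% over 35116 promoters. An MRE core was present in 4 of the 8, with 3 copies in CACNA1C, 2 in CACNA1D, 2 in CACNA1F and 1 in CACNA1I, and in 29.6% of all promoters. None of the 8 contained an AP-1 string, which 4.95% of all promoters do. The 250 bases before the start of CACNA1C (chr12:2052737-2052986, plus strand) are shown because all 3 cores lie there without a peak in either condition. Capitals mark the cores.
CACNA1C promoter: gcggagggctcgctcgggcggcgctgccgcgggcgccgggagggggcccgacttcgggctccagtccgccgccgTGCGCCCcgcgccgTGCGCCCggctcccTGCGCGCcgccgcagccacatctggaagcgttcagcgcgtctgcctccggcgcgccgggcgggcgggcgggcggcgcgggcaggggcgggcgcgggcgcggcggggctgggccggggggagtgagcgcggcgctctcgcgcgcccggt

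Among the L-type genes, CACNA1D differed most between the lists. It encodes the channel that paces sinoatrial and neuroendocrine cells and lies on chr3:53328963-53813733 (ENSG00000157388.20, plus strand, 485 kb). The control list held 1 peak in its window and the cadmium list 6. The single control peak was conserved, 2999 bp in control and 1999 bp in cadmium. This site lay within 1 kb of a start of DCP1A, which overlaps CACNA1D. The 5 gained peaks were narrow, 4 of 399 bp and 1 of 599 bp. The peak in intron 3 at chr3:53570801-53571199, was 221 kb from the nearest control peak and holds the paired strings printed above. A pair lay close together in intron 45, chr3:53805001-53805399 and chr3:53806401-53806999. The remaining 2 were at chr3:53382001-53382399 and, in intron 9, at chr3:53710001-53710399. Peaks per 100 kb of gene body numbered 0.206 in control and 1.24 in cadmium, where the medians of the 1179 genes of 200 to 500 kb were 1.86 and 1.42. CACNA1D was thus far below the median gene of its length in control cells and near it in cadmium-treated cells.

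CACNA1C, the L-type channel of heart and smooth muscle and the longest member (ENSG00000151067.23, chr12:1970772-2697950, plus strand, 727 kb), held 6 control and 7 cadmium peaks. All 6 control peaks were conserved. They included a peak at the start of DCP1B, which overlaps CACNA1C, at chr12:2003201-2004999, and peaks in intron 29 and intron 30. The only gained peak, chr12:2339201-2339599, lay in intron 3, 2.40 kb from a conserved site, and carries the AP-1 and MRE strings shown above. A stretch of 274 kb of the gene, 37.7% of its length, held no peak in either list. Its density, 0.825 and 0.963 peaks per 100 kb in control and cadmium, was close to the medians of 0.881 and 0.686 for 323 genes of at least 500 kb.

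The other L-type genes had nearly all of their peaks outside the gene or at neighbors. CACNA1S, the voltage sensor of skeletal muscle (ENSG00000081248.12, chr1:201039512-201112451, minus strand), held no peak inside its 72.9 kb in either list. Its flanks held 1 lost, 2 gained and 3 conserved sites, among them conserved sites at the starts of KIF21B and ASCL5 and 1 of 1199 bp at chr1:201114001-201115199, 2.17 kb upstream of the canonical start. The lost peak (chr1:201123401-201125199) lay upstream of the gene and the gained peaks (chr1:201019401-201019799 and chr1:201025401-201026199) downstream, on either side of the conserved site at KIF21B. CACNA1F, the channel of photoreceptor synapses (ENSG00000102001.13, chrX:49205063-49233371, minus strand), held 5 conserved sites. Of these, 3 lay within 1 kb of starts of other genes (PRICKLE3, SYP and CCDC22). The single site inside the gene, chrX:49229801-49231599, was centered in intron 4. All 5 were covered over more bases in the cadmium list, for example 799 bp in control and 1599 bp in cadmium at the start of SYP. Its gained peak lay upstream, at chrX:49242601-49243199.

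CACNA1B, the N-type channel that drives transmitter release, shared no site between the conditions. It lies on chr9:137877782-138124624 (ENSG00000148408.14, plus strand), 270 kb from the end of the chromosome. The control list held 2 peaks in its window, of 4599 bp at chr9:137952001-137956599 and of 399 bp at chr9:137982201-137982599, and both were lost. The cadmium list held 8 peaks, all gained, of 399 to 2599 bp. A pair of them flanked the start. The peak at chr9:137873801-137876199 was centered 2.78 kb upstream of it and also lay within 1 kb of a start of another gene, ENSG00000203987. The peak at chr9:137880201-137880599 lay 2.62 kb downstream in intron 2. Each was over 70 kb from any control peak (75.8 and 71.4 kb). Of the others, those at chr9:137969601-137972199, chr9:137990001-137990399 and chr9:138007601-138008999 were centered in introns 10, 15 and 16. Those at chr9:138053601-138054599, chr9:138112001-138113999 and chr9:138118001-138120399 were centered in introns 26, 40 and 44, the last pair near the 3′ end. The window was covered by peaks over 4998 bp in control and 12592 bp in cadmium. Peaks per 100 kb of gene body numbered 0.810 in control, a density that exceeded 25.2% of genes of its length class, and 2.84 in cadmium, which exceeded 74.6%.

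CACNA1A, the P/Q-type channel of cerebellar neurons (ENSG00000141837.22, chr19:13206442-13633025, minus strand), had equal numbers in both lists, 14 and 14, with 3 lost, 4 gained and 10 conserved sites. The lost peaks all lay in the 3′ part of the gene or beyond it and were wide, 4199 bp downstream at chr19:13189201-13193399, 2199 bp over the last exon, exon 47, at chr19:13205801-13207999, and 1799 bp in intron 24 at chr19:13268001-13269799. Of the gained peaks, 3 lay toward or beyond the 5′ end, in intron 1 (chr19:13483201-13484399), 123 kb upstream of the canonical start within the annotated gene (chr19:13628801-13630399) and 131 kb upstream of it (chr19:13637601-13638199). The fourth, chr19:13234401-13234799, lay in intron 34. The widest conserved sites, both 2799 bp, were in introns 22 and 3. CACNA1A had 2.81 peaks per 100 kb in each list, above the class medians of 1.86 and 1.42.

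CACNA1E, the R-type channel (ENSG00000198216.14, chr1:181317690-181813262, plus strand), held few peaks, 3 in control and 2 in cadmium. Both lost peaks lay upstream of the gene, at chr1:181309801-181310999 and chr1:181313801-181314399. A conserved site followed at chr1:181324801-181326599, covered over 1799 bp in control and 599 bp in cadmium. The gained peak, chr1:181655801-181656199, was centered in intron 7, 329 kb from the nearest control peak. A stretch of 329 kb of CACNA1E, 66.4% of the gene, held no peak in either list. It was the only member with more lost than gained peaks.

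The T-type genes CACNA1G and CACNA1H are of nearly equal length and differed in the share of conserved sites. CACNA1G, of 66.8 kb, held 9 control and 10 cadmium peaks, and all 9 control peaks were conserved. They were wide, up to 11599 bp at a downstream site within 1 kb of starts of ABCC3 and ENSG00000251239. Peaks covered 34.1% of the window in control and 31.9% in cadmium. Within the gene, the site at chr17:50574201-50577799 was centered in exon 8, and that at chr17:50624801-50628599 in the last exon, exon 38. The latter was covered over 3799 bp in control and 1199 bp in cadmium. The gained peak, chr17:50611601-50612599, lay in intron 26. With 8.99 and 10.5 peaks per 100 kb, CACNA1G exceeded 89.6% and 95.5% of the 3127 genes of 50 to 100 kb.

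CACNA1H (ENSG00000196557.13, chr16:1153106-1221771, plus strand, 68.7 kb), a T-type channel of sensory neurons and the adrenal cortex, held 4 control and 9 cadmium peaks. A lost peak of 1199 bp lay in intron 2, 2.29 kb after the start, at chr16:1154801-1155999. The 6 gained peaks followed between 19.8 and 53.1 kb from the start. They were wide, 1399 to 3799 bp, with the widest in intron 2 at chr16:1171001-1174799. A further 2 were in intron 2, at chr16:1185601-1188999 and chr16:1190401-1191799, the second with the tandem repeat printed above. The others were the peak at the start in intron 3, 1 in intron 5 at chr16:1197001-1198599 and 1 over exon 12 at chr16:1205201-1207199. Conserved sites in intron 2 were wider in cadmium, 1599 bp against 1199 bp and 3199 bp against 1799 bp. The window was covered over 4996 bp in control and 19791 bp in cadmium, a ratio of 3.96 and the largest of the 10 genes. Peaks per 100 kb numbered 4.37 in control and 11.7 in cadmium, above 61.6% and 97.0% of its length class.

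CACNA1I, a T-type channel of the thalamus (ENSG00000100346.18, chr22:39570753-39689735, plus strand), held 3 control and 5 cadmium peaks. All 3 control peaks were conserved and all were wider in cadmium, 799 and 999 bp at chr22:39574601-39575599, 1199 and 1799 bp at chr22:39591801-39593599 and 1199 and 2199 bp at chr22:39633801-39635999. The gained peaks lay 11.1 kb upstream of the start, at chr22:39559401-39559999, and in intron 3, at chr22:39609401-39611199. The first conserved site, in intron 1, held 3 AP-1 strings, the most of any site of the family.
CACNA1I, conserved, chr22:39574920-39575013: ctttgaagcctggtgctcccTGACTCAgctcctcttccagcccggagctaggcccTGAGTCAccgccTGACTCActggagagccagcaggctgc

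**Figure D2:**
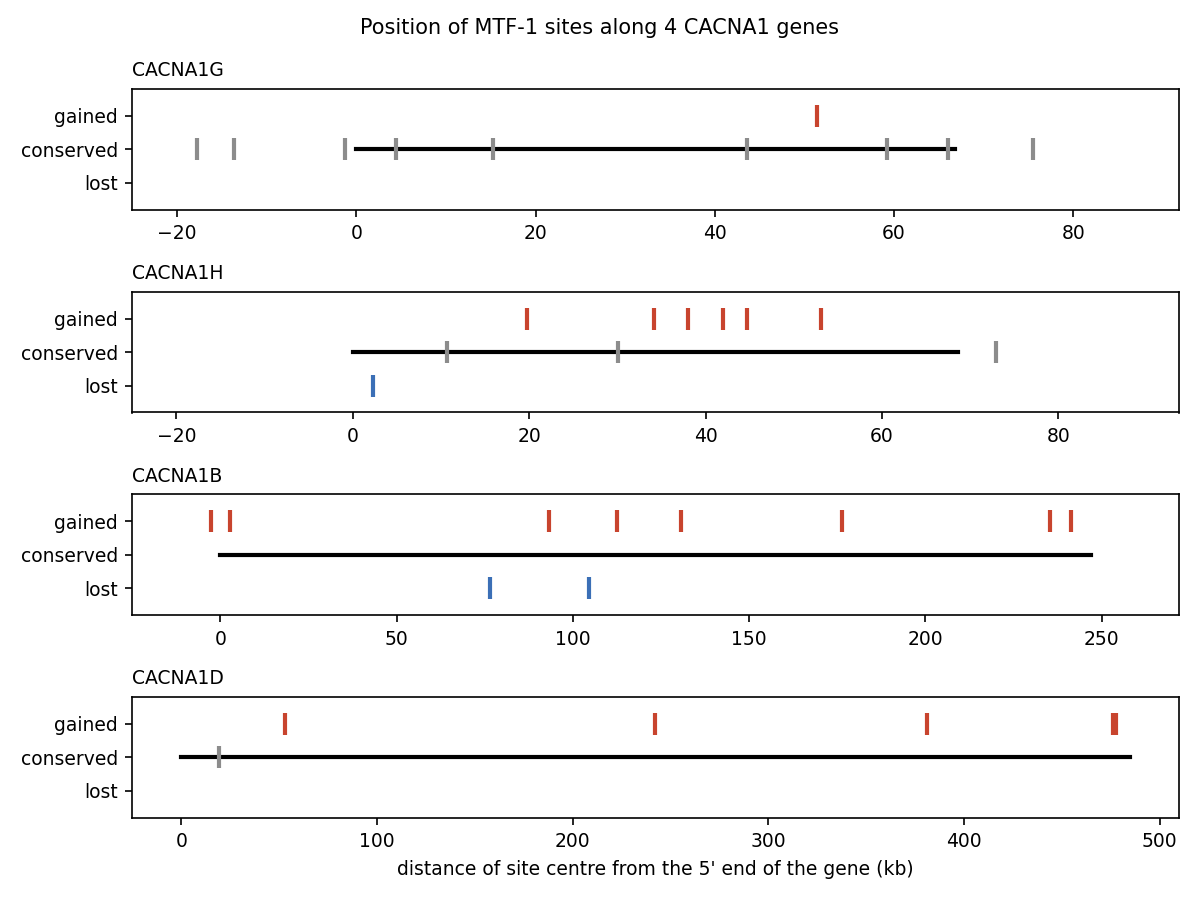
Positions of site centers (kb from the 5′ end of the gene, horizontal axis) for lost, conserved and gained MTF-1 sites at CACNA1G, CACNA1H, CACNA1B and CACNA1D. The black line spans the gene, each mark is 1 site, and each panel has its own scale. CACNA1G carries 9 conserved sites and 1 gained site, 7 of the 8 gained sites of CACNA1B lie within the gene and 1 just upstream, and the 6 of CACNA1H lie between 19.8 and 53.1 kb from its start.

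**Figure D3:**
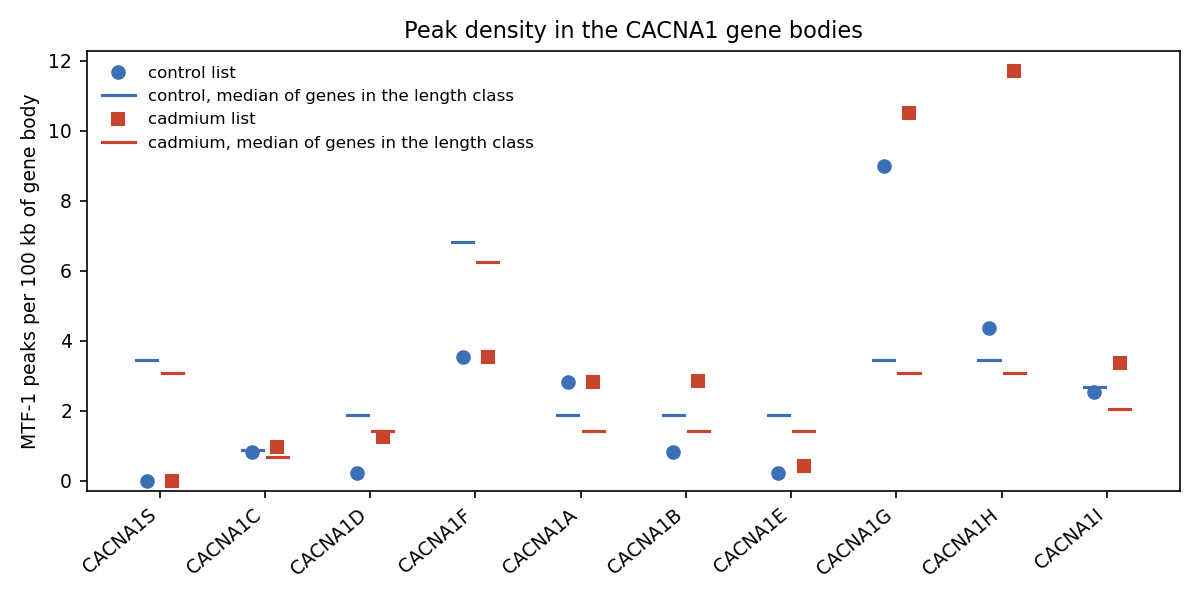
MTF-1 peaks per 100 kb of gene body in the control list (circles) and the cadmium list (squares) for each CACNA1 gene, with short lines for the median of all protein-coding genes of the same length class. CACNA1H moves from 4.37 to 11.7 and CACNA1S lies at 0 in both lists.

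By channel type, the 4 L-type genes held 1 lost and 9 gained sites, the 3 P/Q-, N- and R-type genes 7 lost and 13 gained, and the 3 T-type genes 1 lost and 9 gained. The L- and T-type groups had 15 conserved sites each and the P/Q-, N- and R-type group 11. The median density over the 10 gene bodies was 1.67 peaks per 100 kb in control and 2.82 in cadmium, and the medians over all protein-coding genes were 4.54 and 3.95. Since density falls with gene length in both lists and most members are long, the class medians given above are the closer comparison.

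Of the 51 control peaks in the windows, 17.6% were lost (95% Wilson confidence interval 9.57 to 30.3%), and of all control peaks 27.9% were. Of the 73 cadmium peaks, 42.5% were gained (31.8 to 53.9%), and of all cadmium peaks 15.1% were. These intervals cover counting error only, and peaks of 1 gene are not independent of each other. There were 3.44 gained peaks per lost peak in the windows and 0.468 in the 2 lists as a whole. The ratio in the windows was 1.67, from 20 gained and 12 lost peaks, when only peaks of at least 1000 bp were classed. As first classed, 14 gained and 7 lost peaks were that wide. For the 2 whole lists the ratio was not counted at that width. Measured in bases, cadmium peaks covered 1.21 times as many bases of the windows as control peaks, and 0.697 times over the genome. By gene this ratio ran from 0.277 at CACNA1E to 2.52 at CACNA1B and 3.96 at CACNA1H. The summed ratio was not counted with genes left out. More bases were covered in cadmium at 5 of the 10 members, CACNA1B, CACNA1D, CACNA1F, CACNA1H and CACNA1I. Of the windows of all 20033 protein-coding genes, 4317 (21.5%) had more bases covered in cadmium. Leaving out any 1 gene left between 23 (without CACNA1B) and 30 gained and between 6 (without CACNA1A) and 9 lost peaks.

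None of the gained peaks of the family lay within 1 kb of a control peak (3.97% of all gained peaks did). At least 10 kb from the nearest were 21 of 31 (67.7%, and 49.4% of all gained peaks), and the median distance was 15.8 kb, against 9.60 kb for all gained peaks. They had a median width of 999 bp against 599 bp for all gained peaks, and the 9 lost peaks a median of 1799 bp against 999 bp. By position, 22 of the 31 lay inside the gene away from any start of it (14 in introns, 8 touching an exon), 3 at starts inside the gene and 6 in the flanks. A long gene fills most of its window, and the same shares over all gained peaks were not counted. Of the 41 conserved sites, 14 lay within 1 kb of a start of another gene, against 2 of the 31 gained and none of the 9 lost sites. Counting starts of any gene, their own included, 19 of 41 conserved (46.3%), 5 of 31 gained (16.1%) and none of 9 lost sites had one within 1 kb, where the shares over all sites were 39.5%, 15.5% and 15.1%.

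By number of sites, more conserved sites were wider in cadmium than in control, but their summed bases were nearly equal. Of 41, 21 were covered over more bases in cadmium (51.2%, 36.5 to 65.7%), 14 over fewer (34.1%, 21.6 to 49.5%) and 6 over equal lengths. These intervals too cover counting error only, are no test, and treat sites of 1 gene as independent, which they are not. Of all 48627 conserved sites, 23.7% were covered over more and 58.0% over fewer bases in cadmium. The median difference was 200 bp more in cadmium at the members, which is 1 bin of the peak caller, and -200 bp over all sites. In sum, the 41 sites were covered over 79558 bp in control and 78758 bp in cadmium, and the median width was 1599 bp in control and 1399 bp in cadmium. All conserved sites were covered over 105850870 bp in control and 83362344 bp in cadmium, with medians of 1599 and 1199 bp.

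**Figure D4:**
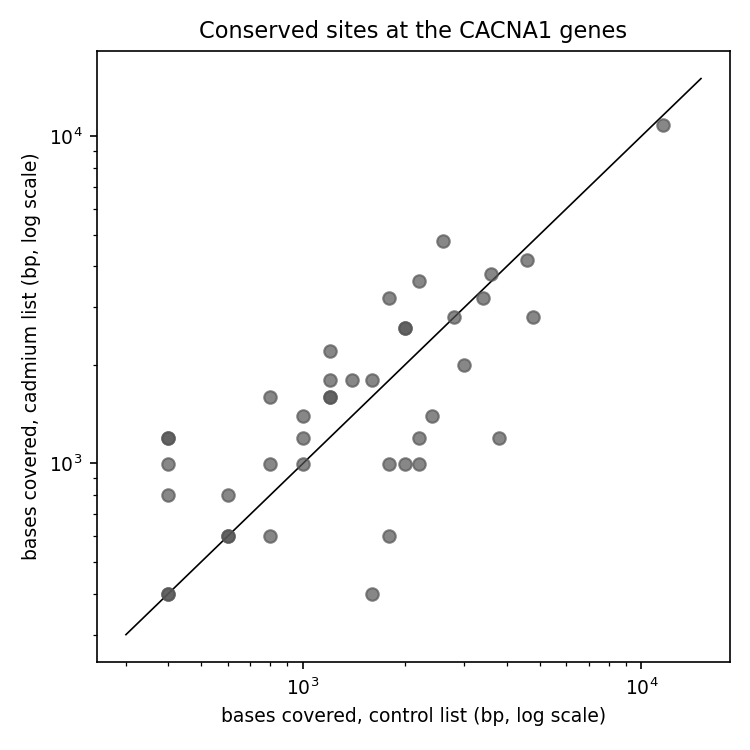
Bases covered by control peaks (horizontal axis, bp, log scale) and by cadmium peaks (vertical axis, bp, log scale) at the 41 conserved sites of the CACNA1 genes, with the line of equality. Points above the line, 21 sites, are wider in cadmium, and 14 lie below it.

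Base composition and surroundings of the windows are given beside these counts. Over all protein-coding genes the median GC content was 44.4%, and CACNA1D (43.8%) and CACNA1E (43.6%) lay below it. Surroundings were counted for the members only. GC content ran from 43.6% (CACNA1E) to 63.2% (CACNA1H, above 99.7% of all windows), and when protein-coding genes were ranked by GC into 5 groups of equal size, 8 of 10 members were in the upper 2 groups. The share of windows with more gained than lost peaks was 8.86% in the group poorest in GC and 31.0% in the richest. Members in the richest group were CACNA1S, CACNA1F, CACNA1G, CACNA1H and CACNA1I. CACNA1D, with 5 gained peaks and none lost, was in the middle group, where the share was 17.1%. In the 1 Mb on each side of the windows there were 148 gained and 154 lost peaks, 0.961 gained per lost, and gained peaks were more numerous there at 5 of the 10 members. The surroundings of CACNA1H were richest in gained peaks, 37 against 10 lost. Chromosomes 16 and 22, which carry CACNA1H and CACNA1I, had more gained than lost peaks over their whole length, with 511 gained and 295 lost peaks (1.73 gained per lost) and 258 and 201 (1.28). The part of base composition, of the surroundings and of the chromosome in the members' counts was not tested.

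**Figure D5:**
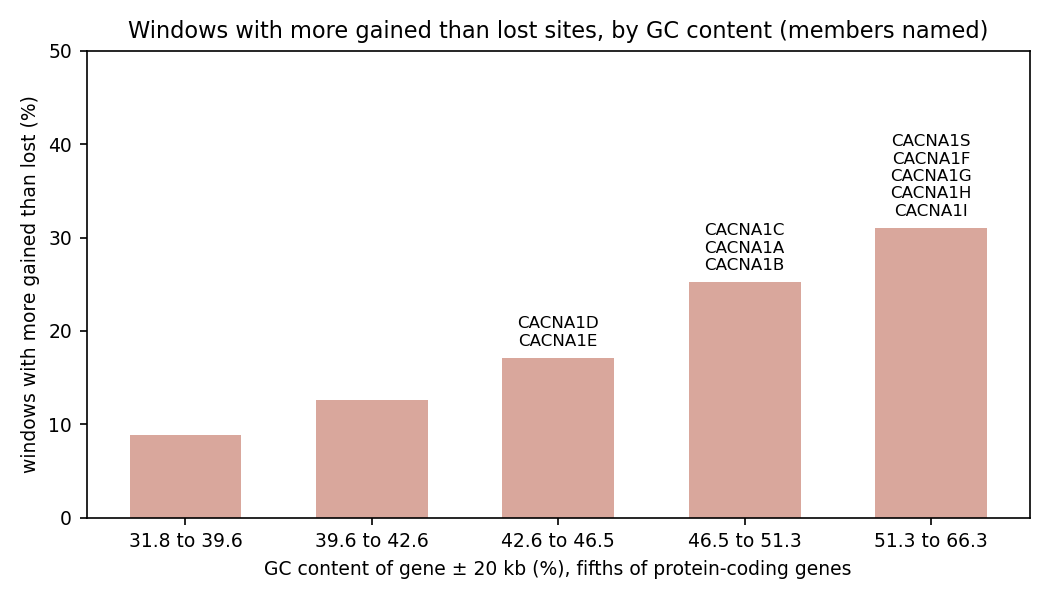
Share of protein-coding gene windows with more gained than lost MTF-1 sites (percent, bars) in 5 equal groups of genes by window GC content (percent, horizontal axis), with the CACNA1 genes named above their group. The share is 8.86% in the poorest group and 31.0% in the richest, which holds 5 of the 10 members.

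Sequence at the center of the peaks, in windows of 500 bp, was also richer in GC than usual. The median was 55.8% for the 31 gained peaks of the family (48.4% for all gained peaks), 48.6% for the 9 lost (43.6%) and 57.4% for the 41 conserved (49.0%). An AP-1 string was present in 9 of 31 gained (29.0%), 3 of 9 lost (33.3%) and 10 of 41 conserved sites (24.4%), where the shares over all sites were 32.6%, 24.5% and 23.5%. An MRE core was found in 15 gained (48.4%), 5 lost (55.6%) and 21 conserved sites (51.2%) and in 30.6%, 28.8% and 36.5% of all sites. Forkhead strings, searched as GTAAACA or GTAAATA and the same with A as first base, were present in 16.1% of gained, 33.3% of lost and 12.2% of conserved sites, with 25.5%, 41.1% and 26.7% over all sites. The members' shares were thus near those of all sites for AP-1 strings in gained and conserved sites, above them for MRE cores and below them for forkhead strings in all 3 classes, although 9 lost sites give only coarse shares. An MRE core is rich in G and C and a forkhead string in A and T, and the part of GC content in these shares was not tested.

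TGCACACG is the MTF-1 matrix consensus of JASPAR and contains an MRE core. The authors doubt that it is a true MTF-1 motif and report no enrichment of it. It occurred at 2 of the 81 sites. These were the lost peak 2.29 kb after the start of CACNA1H and the conserved peak over the start of CACNA1G, and both are on the minus strand, so that the plus strand reads as its reverse complement. None of the 31 gained peaks held it. Over all sites it was found in 0.723% of lost, 0.893% of gained and 0.999% of conserved sites.
CACNA1H, lost, chr16:1155546-1155593: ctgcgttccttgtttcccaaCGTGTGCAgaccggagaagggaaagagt
CACNA1G, conserved, chr17:50559509-50559556: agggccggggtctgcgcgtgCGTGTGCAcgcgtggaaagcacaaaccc

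Some of the gained peaks lay in sequence that repeats within the peak, as the CACNA1H stretch above shows. In 5 of 31 gained peaks (16.1%) at least 10% of all words of 20 bases occurred more than once in the same peak, against 4.34% of all gained peaks, and all 5 belonged to CACNA1B (3 peaks) or CACNA1H (2 peaks). The share of repeated words reached 60.4% in the CACNA1H peak printed above and 38.2% in the CACNA1B peak at chr9:138112001-138113999. In the gained peak upstream of the CACNA1B start it was 30.1%. None of the 9 lost peaks and 1 of the 41 conserved sites reached 10%. How reads were placed within such repeats is not known from the lists, and the part of repeats in the gained counts was not tested. The other 26 gained peaks were below that share.

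The channels work with auxiliary subunits, and these were counted in the same way for all 16 genes of the α2δ, β and γ families. Some of these genes are neighbors with overlapping windows, so distinct peaks were counted, 68 in control and 72 in cadmium, with 18 lost, 19 gained and 49 conserved sites. A gained peak was present at 10 of 16 and a lost peak at 8 of 16, and 4 had more gained than lost peaks. The canonical start had a peak at 7 of 16 in each list, against 1 of 10 of the pore-forming genes. CACNA2D2, an α2δ subunit that brings channels to the membrane, held 8 control and 17 cadmium peaks. Its 10 gained peaks exceeded the 8 of CACNA1B, beside 2 lost peaks and 6 conserved sites. CACNA2D4 was the reverse, with 11 control and 5 cadmium peaks and 7 lost against 1 gained. CACNG2, the AMPA receptor partner stargazin, held 10 and 12 peaks and CACNB1, the β subunit of skeletal muscle, 8 and 7, nearly all conserved. Start peaks differed between the lists at 3 genes. CACNB2, a β subunit of the heart, and CACNG4 had one in control only, and CACNG7 in cadmium only.

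In the voltage-gated sodium channel genes, the family closest in structure, 9 windows held 7 lost and 13 gained peaks, 1.86 gained per lost, and 4 of 9 had more gained than lost peaks. The canonical start had a peak at 5 of 9 in control and 4 of 9 in cadmium. Some sodium channel genes are neighbors, so that a peak can count for 2 of them. The 14 SLC39A metal importers, through which cadmium also enters cells, held 8 lost and 4 gained peaks, and a canonical start peak at 11 of 14 in both lists. The importers thus had more lost than gained peaks, as the 2 lists do as a whole, and start peaks at most genes.

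For the label of the cells, start peaks were counted at genes that mark mesenchymal lines such as MDA-MB-231 (VIM, CD44, AXL, ZEB1, MSN), where all 5 had one in both lists, and at luminal genes (ESR1, GATA3, FOXA1, CDH1, ERBB3), where 4 of 5 had one in each list. Among the luminal genes, ESR1 had a start peak in control only and GATA3 in cadmium only. A peak at a start is not a measure of expression, and these lists do not check the label.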

How the data were processed

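The authors trimmed CUT&RUN reads, used Bowtie2 for alignment to hg38, pooled both replicates per condition with samtools (1.8 in the submitters' processing notes) and called peaks with Epic2, a reimplementation of SICER, at default settings. A control library is not given in the sources used here. Each deposited list gives a chromosome, start and end in base pairs, in steps of 200 bp, and a score that is the same in every row and was not used. The condition of each list was read from its name.

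Genes, transcript starts and exons were taken from GENCODE 44 on hg38. Peaks were compared in Python 3.11.15 by shared bases (at least 1), after the study's rules, and the classes were checked against bedtools 2.31.1 and tested on simulated lists. Exon and intron numbers are those of the canonical transcript at the peak center. Motifs were searched as exact strings on both strands with pysam 0.24.0.

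The 10 genes and the comparison lists were chosen with earlier results of these data known. All 10 members are named, with every lost and gained peak and every peak at a start of theirs by position. Of the auxiliary subunits, those whose start peaks differed and those with the most control peaks are named, 4 because of a tie.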

Additional observations from a re-analysis of the deposited data

How the results depend on the processing

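Gained peaks outnumbered lost peaks in the windows under every alternative tried. Counting the gene body only gave 5 lost and 25 gained peaks, with more gained than lost peaks at 8 of the 10 genes. Windows of 50 kb on either side gave 86 control peaks, 14 lost and 40 gained peaks and 66 conserved sites. More gained than lost peaks were then found at 7 of the 10 genes. Keeping only peaks of at least 1000 bp in both lists, and classing them again, gave 32 control and 40 cadmium peaks. These formed 12 lost and 20 gained peaks and 20 conserved sites. A lost or gained peak of this setting can overlap a narrower peak of the other list. As first classed, 7 lost and 14 gained peaks were that wide. This setting gave more gained than lost peaks at 5 of the 10 genes in place of 9. Any gained peak was present at 7 in place of 10. Gained per lost was 1.67 in that setting, the lowest of those tried, against 3.44 as reported. Shares over all protein-coding genes were not counted in that setting. Requiring that the other list cover at least 50% of a peak gave 15 lost and 37 gained peaks, with more gained at 7 genes. Leaving out sites at starts of other genes, chosen after seeing the data, left 27 conserved sites and more gained than lost peaks at 9 genes.

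The number of members with a start peak depended on the definition of a start. It was 1 in both lists with the canonical start, and also with starts of protein-coding transcripts, and 6 in control and 8 in cadmium within 3 kb of any start. Shares over all protein-coding genes were not counted for starts of protein-coding transcripts or for 3 kb. Of 35 alternatives, 7 of them chosen after seeing the data, 19 stayed within 1.5 times the reported value. No paired analysis was possible because the 2 peak lists analysed here were each called on merged replicates, and for the same reason no replicate was left out. Alignments and coverage of single libraries were not analysed here.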
